A study of Mus musculus with 9 samples.

Results

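The genes described here are 31 members and targets of the p53 pathway, among 16428 genes measured by RNA-seq in mouse embryonic fibroblasts (connective tissue cells grown from embryos). They were listed by symbol as known members or targets, with no threshold on a measured value, but with earlier results of these data known. All 31 had a row, and all 31 had a mean of at least 10 normalized reads over the 9 libraries, the minimum for testing, which 14560 genes reached. Every library came from cells with the CARM1f/f ER-Cre genotype, in which the Carm1 gene is floxed and a Cre recombinase is fused to an estrogen receptor domain. The CARM1i group (3 libraries) received 1 uM TP-064, an inhibitor of the arginine methyltransferase CARM1, for 6 days. The KO group (3 libraries) received 2 uM 4-OHT for 6 days, which lets the recombinase remove the floxed part of Carm1. The WT group (3 libraries) had the same genotype and no treatment. The labels name neither a vehicle group nor cells given 4-OHT with an intact Carm1 gene, so the agent and the loss of Carm1 cannot be told apart in KO, nor TP-064 and any solvent in CARM1i. Whether the 3 libraries of a group were grown as separate cultures is not in the labels. The p-values therefore refer only to the spread among these libraries, which may be technical.

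p53, encoded by Trp53, is a transcription factor that is made all the time and kept scarce by Mdm2, a ubiquitin ligase that marks it for degradation. Damage or stress releases p53, which then switches on genes that stop the cell cycle, repair DNA, adjust metabolism or start apoptosis. Mdm2 is itself a target, so a rise of p53 feeds back on its own removal. In fibroblasts the pathway is best known for arrest and senescence, and CARM1 and its partner p300 have been described as coactivators of transcription by p53. The protein is controlled mainly after translation, so the level of Trp53 RNA does not report its amount or activity. Neither was measured here.

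p53 binds DNA through copies of a decamer, and this 10-base p53 decamer consensus was looked for, by exact match, in RefSeq promoters (GRCm38.p6, 250 bases before to 50 after a gene's start). The consensus reads the same on either strand, so a search of 1 strand covers both. Of the 31 members, 23 had a promoter in the table, and 9 of those 23 (39.1%) held at least 1 match, beside 8.31% of the 10296 tested genes with a promoter. A match is a run of letters and not a shown binding site, and many sites that p53 uses lie in introns outside these windows. The matches of the 8 members that passed the test in at least 1 comparison are given with their flanks, the decamer in capitals. Members with a promoter and no match passed as well, namely Mdm4, Btg2, Plk2, Plk3, Psrc1, Pidd1, Phlda3, Fas, Eda2r and Sesn2. Any link between a match and the expression values was not tested. Trp53 is the ninth member with a match.
Mdm2 (chr10:117710895-117710984, minus strand): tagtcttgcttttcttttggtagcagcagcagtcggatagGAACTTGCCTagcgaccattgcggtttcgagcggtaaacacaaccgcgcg
Ppm1d (chr11:85311082-85311171, plus strand): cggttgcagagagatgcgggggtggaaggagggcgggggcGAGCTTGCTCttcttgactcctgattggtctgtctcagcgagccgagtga
Ccng1 (chr11:40755422-40755511, minus strand): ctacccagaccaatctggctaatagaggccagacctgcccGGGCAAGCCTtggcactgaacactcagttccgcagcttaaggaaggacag
Bax (chr7:45467050-45467139, minus strand): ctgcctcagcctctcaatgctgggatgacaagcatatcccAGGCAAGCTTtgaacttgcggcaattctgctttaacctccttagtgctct
Aen (chr7:78895927-78895956, plus strand): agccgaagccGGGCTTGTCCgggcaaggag
Ei24 (chr9:36797335-36797354, minus strand): cgtgcggcccGGGCATGCCC
Polk (chr13:96519369-96519437, minus strand): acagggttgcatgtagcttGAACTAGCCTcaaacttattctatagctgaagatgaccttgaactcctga
Sesn1 (chr10:41887226-41887315, plus strand): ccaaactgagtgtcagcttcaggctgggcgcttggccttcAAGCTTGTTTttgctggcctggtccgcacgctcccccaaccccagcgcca
The Ccng1 match began 185 bases before the start, the Mdm2 match 186, the Bax match 201 and the Ppm1d match 132. In Ei24 it ended at the last base before the start. For Aen, Polk and Sesn1, which have 2 promoters each in the table, it began 121, 231 and 173 bases before a start. The Polk and Sesn1 matches belong to the downstream of their starts, and the Aen match lies in both windows.

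Libraries held 28657018 to 35842771 reads recovered from the deposited values, which are read counts divided by a size factor for each library (normalized reads below). A member was covered by between 6 reads (Cd80) and 26723 reads (Plk2) in a library. Carm1, the targeted gene, had 1112, 1072 and 986 normalized reads in CARM1i replicates 1 to 3, 794, 711 and 769.8 in KO and 1079, 1143 and 1091 in WT, over the whole gene and not over its floxed part alone. The KO libraries were the lowest (-0.54 ± 0.06 on the log2 scale against WT). CARM1i replicate 3 stood apart from the other CARM1i libraries over all genes, with 7.91 and 8.47 chi-square units per gene against them, beside 3.19 between the other two. It was the highest of its group for 18 members and the lowest for 9. All but Lum of 10 fibroblast markers had a mean of at least 10, and the 10 summed to 222225 to 246725 normalized reads in CARM1i, 188799 to 200518 in KO and 255131 to 264519 in WT. Of 8 macrophage markers, 5 were measured and summed to 294 to 329 in CARM1i, 304 to 341 in KO and 259 to 321 in WT, while Ptprc, Adgre1 and Itgam were not analysed here. Krt18, the epithelial marker measured, had 32.4 to 43.8 in CARM1i, 91.9 to 126 in KO and 23.3 to 48.0 in WT. Acta1, the skeletal muscle marker measured, had 91.5 to 174 in CARM1i, 205 to 251 in KO and 142 to 159 in WT. The 4 endothelial markers summed to 239 to 262 in CARM1i, 288 to 341 in KO and 264 to 299.7 in WT. Neural markers (3 of 4 measured) summed to 609.9 to 690.4 in CARM1i, 449.6 to 478 in KO and 749 to 852 in WT.

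**Figure D1:**
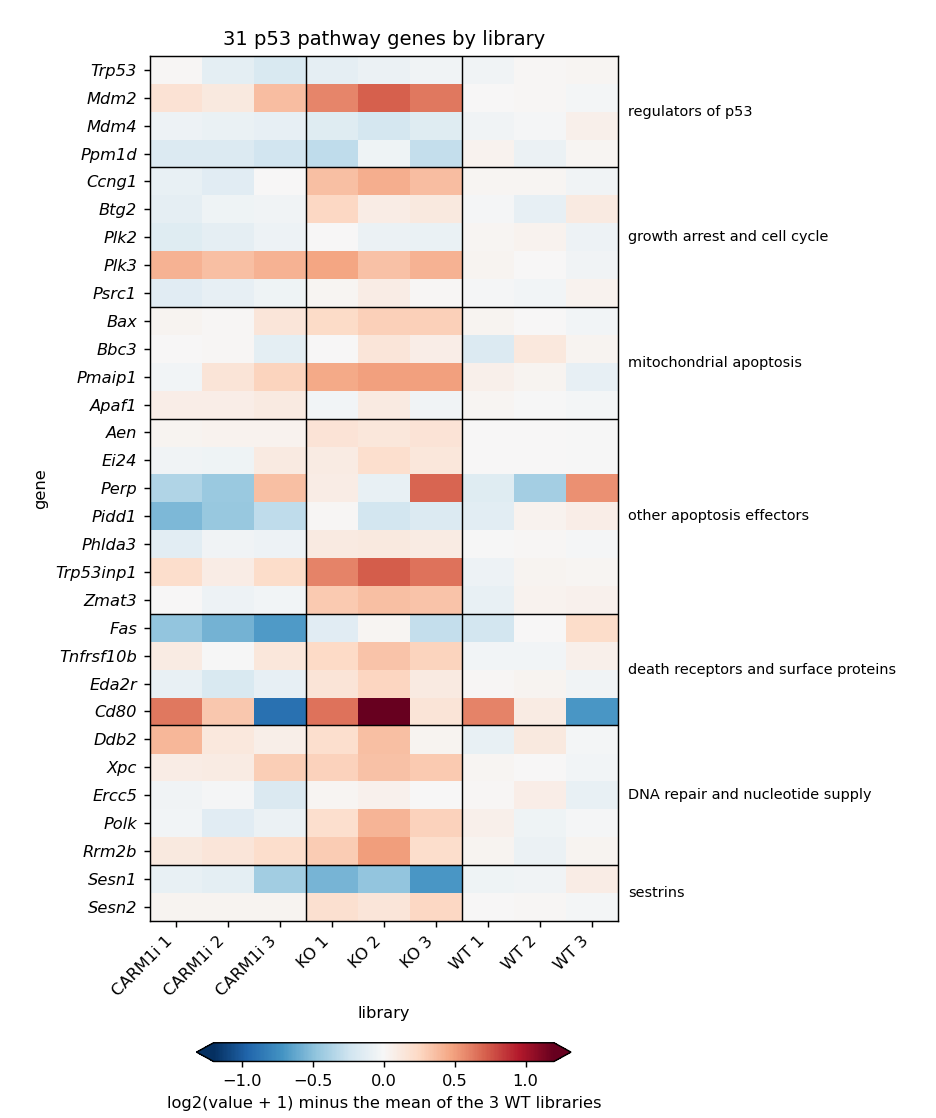
Each cell is a library's log2(value + 1) minus the mean of the 3 WT libraries for that gene, with genes in rows by role and the CARM1i, KO and WT libraries in columns. Mdm2, Trp53inp1, Ccng1 and Zmat3 are redder in KO than in CARM1i, Plk3 is red in both groups, and Sesn1 is blue in KO while Fas and Pidd1 are blue in CARM1i.

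The first comparison asked how the pathway's genes stand after 4-OHT and loss of Carm1. In KO, 17 of 31 members (54.8%) rose and 3 (9.68%) fell, beside 21.4% higher, 20.5% lower and 41.9% in either direction among all 14560 genes tested (limma on log2(value + 1), Benjamini-Hochberg adjusted p under 0.05). Trp53inp1 was 1.58-fold and Mdm2 1.57-fold higher, and the other 15 lay between 1.08-fold (Phlda3) and 1.40-fold (Pmaip1). The members' median log2 fold change was 0.17, against -0.0043 for all genes tested. With bulk RNA, fewer cells of a kind and less RNA per cell cannot be told apart. In the same KO libraries all 12 proliferation genes fell, with a median of -1.33, among them Top2a (-1.41 ± 0.03), Ccna2 (-1.50 ± 0.04), Kif11 (-1.46 ± 0.05) and Mcm6 (-1.08 ± 0.04), and 7 of 9 fibroblast markers tested fell while Thy1 rose (0.18 ± 0.03). Of the other cell type markers, Krt18 (1.58 ± 0.25), Acta1 (0.61 ± 0.17) and Cd68 (0.98 ± 0.27) rose and Nes (-0.96 ± 0.08), Tubb3 (-1.59 ± 0.19) and Cd14 (-0.43 ± 0.14) fell. The part of any of these in the p53 genes' values was not tested.

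Among the regulators, Trp53 itself had 1674, 1717 and 1761 normalized reads in KO, against 1761, 1829 and 1834 in WT. The highest KO value was just below the lowest WT value, and the difference did not pass (log2 fold change -0.07 ± 0.05, 95% interval -0.18 to 0.03, adjusted p = 0.231). Mdm2 (ENSMUSG00000020184.15; mm10, chromosome 10, 117688875 to 117710758) had 16221, 17787 and 16777 normalized reads in KO, against 10844, 10925 and 10635 in WT. Every KO library was above every WT library, and Mdm2 rose by 0.65 ± 0.05 on the log2 scale (adjusted p = 5.79e-09). Mdm4, the Mdm2 relative that binds and blocks p53 without degrading it, had 3041, 2896 and 3031 normalized reads in KO, against 3254, 3335 and 3497 in WT. Here the groups were also apart, in the other direction (-0.17 ± 0.04, adjusted p = 0.00114). Ppm1d, the Wip1 phosphatase that switches the damage response off, fell to 527 ± 53.2 in KO, against 611 ± 26.6 in WT (SD, n = 3 each; -0.21 ± 0.07, adjusted p = 0.0246). KO replicate 2 overlapped WT for Ppm1d. Its adjusted p ran from 0.00363 to 0.112 over the alternatives and missed 0.05 without KO replicate 1 or 3 or WT replicate 1 or 3. The Ppm1d call was also lost with quantile normalization and in limma without the mean-variance trend.

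Of the 5 genes of growth arrest and cell cycle, 3 (60.0%) rose in KO, beside 54.8% of all members and 21.4% of all genes tested. Ccng1 (ENSMUSG00000020326.7; chromosome 11, 40748552 to 40755311) encodes cyclin G1, which brings a phosphatase to Mdm2, and had 21453, 22727 and 21666 normalized reads in KO, against 16998, 17048 and 16231 in WT. The lowest KO library was well above the highest WT library (0.39 ± 0.04, adjusted p = 1.22e-07). Plk3, a stress-responsive polo-like kinase, had 2456, 2256 and 2362 in KO, against 1811, 1773 and 1718 in WT (0.42 ± 0.04, adjusted p = 2.11e-07), again without overlap. Btg2, an antiproliferative adaptor of mRNA deadenylation, rose by 0.15 ± 0.05 (adjusted p = 0.0322), with WT replicate 3 above KO replicate 2. Its adjusted p over the alternatives was 0.00526 to 0.184, above 0.05 without KO replicate 1 or WT replicate 1 or 2. It was also above 0.05 when values were rescaled to a common total and in limma without the mean-variance trend. Plk2, a relative of Plk3, stood at -0.05 ± 0.03, and Psrc1, a microtubule protein of the mitotic spindle, at 0.04 ± 0.04, and neither passed.

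In the mitochondrial branch of apoptosis, Bax, which opens the outer mitochondrial membrane, had 2337, 2432 and 2435 normalized reads in KO, against 2040.5, 2005 and 1951 in WT (0.26 ± 0.04, adjusted p = 5.17e-05). Pmaip1, the Bcl-2 antagonist Noxa, had 153, 158 and 158 in KO, against 117, 115 and 105 in WT (0.48 ± 0.13, adjusted p = 0.0048). For both genes every KO library was above every WT library. Bbc3, the related antagonist Puma, did not pass (0.08 ± 0.09, interval -0.10 to 0.26), nor did Apaf1, the scaffold of the apoptosome (0.01 ± 0.04, interval -0.08 to 0.10). A same-strand gene model, Gm45808, shares 192 bases of Bax exon, and how reads there were counted is not given in the sources used here.

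Of the 7 other apoptosis effectors, 5 (71.4%) rose in KO, beside 54.8% of all members and 21.4% of all genes tested. Trp53inp1 (ENSMUSG00000028211.11; chromosome 4, 11156431 to 11174379), a stress protein that supports p53 phosphorylation and autophagy, had 7029, 7707 and 7301 normalized reads in KO, against 4453, 4768 and 4727 in WT. It was the largest rise among the members that passed (0.66 ± 0.04, adjusted p = 6.35e-10). Zmat3, a zinc finger protein that binds RNA, had 1478, 1527 and 1517 in KO, against 1123, 1224 and 1233 in WT (0.34 ± 0.05, adjusted p = 1.33e-05), and its KO values were close together and above all WT values. Aen, a nuclease of apoptotic cells (0.16 ± 0.03, adjusted p = 0.000283), Ei24, an endoplasmic reticulum protein (0.15 ± 0.05, 0.0154), and Phlda3, which keeps Akt from the membrane (0.11 ± 0.03, 0.00906), rose by small amounts. The call of Ei24 was lost without KO replicate 2 and in limma without the mean-variance trend (adjusted p of 0.0033 to 0.0831 over the alternatives). That of Phlda3 was lost with quantile normalization (0.00469 to 0.0577). Pidd1, a death-domain scaffold that activates caspase 2, stood at -0.12 ± 0.09 and did not pass. Perp, a membrane protein of cell junctions, had only 13 to 30 reads in a library, and its interval of -0.52 to 0.99 leaves its change unresolved at this depth.

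Among surface proteins, Tnfrsf10b, the mouse receptor of the death ligand TRAIL, had 1558, 1676 and 1585 normalized reads in KO, against 1289, 1290.0 and 1379 in WT (0.28 ± 0.05, adjusted p = 0.000127). Eda2r, a receptor of ectodysplasin, rose by 0.17 ± 0.04 (adjusted p = 0.003). Neither gene's KO and WT libraries overlapped. Fas, the receptor of Fas ligand, stood at -0.13 ± 0.11 (adjusted p = 0.379), with 291, 324 and 261 in KO, against 274, 319 and 371 in WT, and the groups overlapped. Cd80, a costimulatory ligand of immune cells, had 6 to 33 reads in a library and did not pass (0.71 ± 0.45, interval -0.23 to 1.65).

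Genes of DNA repair and nucleotide supply had 3 of 5 members (60.0%) higher in KO, beside 54.8% of all members and 21.4% of all genes tested. Polk, a translesion polymerase, had 1622, 1876 and 1708 normalized reads in KO, against 1478, 1366 and 1399 in WT (0.29 ± 0.05, adjusted p = 0.000235). Xpc, which recognises distorted DNA in nucleotide excision repair, had 1076, 1132 and 1099.8 in KO, against 899, 893 and 869 in WT (0.31 ± 0.06, adjusted p = 0.000201). Rrm2b, the p53-inducible subunit of ribonucleotide reductase, had 809, 926 and 755 in KO, against 668, 624 and 669 in WT (0.34 ± 0.07, adjusted p = 0.00063). The KO libraries were above the WT libraries for all 3. The other subunits of the same enzyme went the other way in KO, with Rrm1 at -1.10 ± 0.04 and Rrm2 at -1.24 ± 0.05, both past the threshold. Ercc5, an excision repair endonuclease (0.03 ± 0.05), and Ddb2, a sensor of ultraviolet damage (0.20 ± 0.10), did not pass. Acp2, on the opposite strand, shares 23.8% of the annotated exon bases of Ddb2, and the strand setting of the counting is not given in the sources used here, so the Ddb2 values are uncertain.

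Sestrins, which restrain the growth kinase mTORC1 under stress, moved in opposite directions. Sesn1 (ENSMUSG00000038332.13; chromosome 10, 41809935 to 41908424) had 189, 201 and 172 normalized reads in KO, against 269.6, 272 and 297 in WT. The groups did not overlap, and the KO mean was 66.9% of the WT mean (-0.58 ± 0.11, adjusted p = 0.00029). Sesn2 had 2753, 2656 and 2856 in KO, against 2419, 2437 and 2364 in WT (0.19 ± 0.04, adjusted p = 0.000324). Each KO library of Sesn2 was above each WT library.

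**Figure D2:**
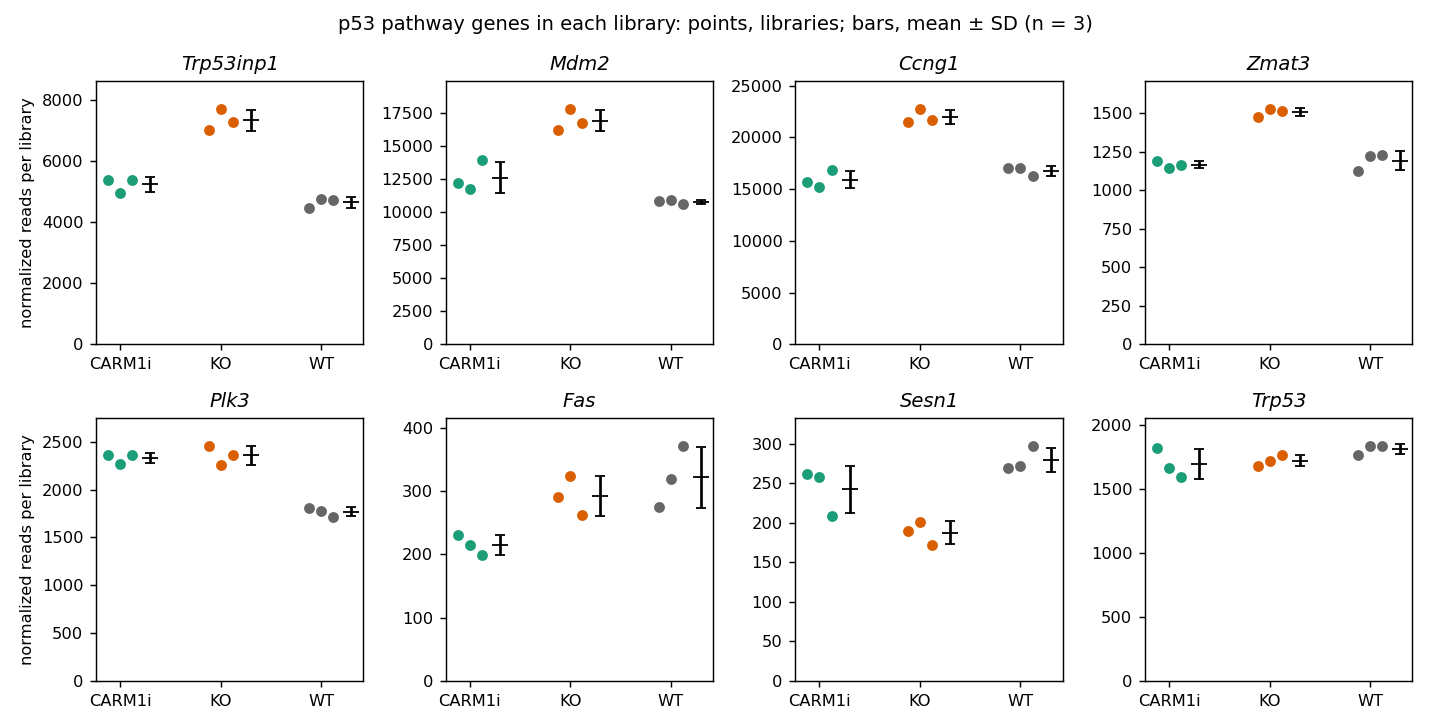
Normalized reads of 8 members in each library (points) with mean ± SD (n = 3) for CARM1i, KO and WT, on axes that start at 0. KO stands above WT for Trp53inp1, Mdm2, Ccng1, Zmat3 and Plk3 and below it for Sesn1, the CARM1i libraries overlap those of KO for Plk3 and not for the other 4 that rose, Fas is lowest in CARM1i, and Trp53 differs little.

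The second comparison set the inhibitor against no treatment, with Carm1 not deleted. In CARM1i, 3 of 31 members (9.68%) rose and 4 (12.9%) fell, beside 10.5% higher, 8.59% lower and 19.1% in either direction among all genes tested. With quantile normalization 4 members rose and 6 fell, beside 1503 genes higher and 1401 lower of the 14560. Plk3, Mdm2 and Trp53inp1 were higher, and Fas, Pidd1, Eda2r and Plk2 were lower. The median over the 31 was -0.032, against -0.0047 for all genes. All 12 proliferation genes fell in these libraries too, with a median of -0.51, among them Cdk1 (-0.45 ± 0.04), and so did 4 of 9 fibroblast markers and the neural marker Nes (-0.36 ± 0.08), while Thy1 rose (0.28 ± 0.03). The part of any of these in the p53 genes' values was not tested. Without CARM1i replicate 3 the counts were 3 members higher and 5 lower, beside 1495 and 1175 of all genes.

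Plk3 had 2358, 2272 and 2366 normalized reads in CARM1i, against 1811, 1773 and 1718 in WT, a 1.32-fold rise (0.40 ± 0.04, adjusted p = 2.38e-06). Every CARM1i library was above every WT library. Mdm2 had 12174, 11749 and 13928 in CARM1i, against 10844, 10925 and 10635 in WT (0.22 ± 0.05, adjusted p = 0.00358). Replicate 3 was the highest CARM1i library, and without it the change was 0.15 ± 0.04 (adjusted p = 0.0047, within 0.000225 to 0.0773 over the alternatives). Trp53inp1 had 5378, 4950.0 and 5398 in CARM1i, against 4453, 4768 and 4727 in WT (0.17 ± 0.04, adjusted p = 0.00702). The lowest CARM1i library was just above the highest WT library for Trp53inp1, and both Mdm2 and Trp53inp1 missed 0.05 in limma without the mean-variance trend (0.0773 and 0.0806).

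Fas (ENSMUSG00000024778.12; chromosome 19, 34290666 to 34327772) had 229.8, 215 and 199 normalized reads in CARM1i, against 274, 319 and 371 in WT. All CARM1i libraries were below all WT libraries, and the mean was 66.8% of that in WT (-0.57 ± 0.11, adjusted p = 0.00156). Pidd1 (ENSMUSG00000025507.13; chromosome 7, 141438113 to 141444025) had 271, 289 and 321 in CARM1i, against 363, 408 and 419 in WT, also without overlap (-0.43 ± 0.09, adjusted p = 0.0026). The falls of Eda2r (-0.12 ± 0.04, adjusted p = 0.0483) and Plk2 (-0.10 ± 0.03, adjusted p = 0.0421) were small and near the threshold. Over the alternatives the adjusted p ran from 0.0225 to 0.19 for Eda2r, which missed 0.05 in 12 of 20. These were edgeR, DESeq2, no filter on low values, limma without the trend, only the compared groups and the replicate number as a block. The others left out CARM1i replicate 1 or 2, KO replicate 1 or 3, or WT replicate 1 or 2. For Plk2 the adjusted p ran from 0.0103 to 0.191 and missed 0.05 in 9 of 20 alternatives. These were limma without the trend, only the compared groups and the replicate number as a block. The others left out CARM1i replicate 1 or 2, KO replicate 2 or 3, or WT replicate 1 or 2.

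The other 24 members did not pass in CARM1i. Ccng1 had 15723, 15217 and 16804 normalized reads in CARM1i, against 16998, 17048 and 16231 in WT (-0.08 ± 0.04, interval -0.15 to 0.00), so a rise of the size seen in KO lay outside its interval. Without CARM1i replicate 3 it was called lower (-0.12 ± 0.03, adjusted p = 0.0165, within 0.0165 to 0.515 over the alternatives). Zmat3 stood at -0.03 ± 0.05 (interval -0.13 to 0.07), Bax at 0.07 ± 0.04 (-0.02 to 0.15), Polk at -0.08 ± 0.05 (-0.19 to 0.03) and Tnfrsf10b at 0.08 ± 0.05 (-0.03 to 0.18). Xpc, at 0.16 ± 0.06 (adjusted p = 0.0572), missed the threshold. It passed with quantile normalization and without CARM1i replicate 1 or 2 (0.0395 to 0.26 over the alternatives). Trp53 had 1820.2, 1664 and 1592 in CARM1i, against 1761, 1829 and 1834 in WT, with overlap (-0.10 ± 0.05, adjusted p = 0.178). It was called lower without CARM1i replicate 1 (0.0349 to 0.487 over the alternatives). Sesn1 (-0.21 ± 0.11), Ppm1d (-0.19 ± 0.07), Mdm4 (-0.08 ± 0.04) and Rrm2b (0.16 ± 0.07) did not pass, and the remaining 13 estimates lay between -0.15 ± 0.36 (Perp) and 0.20 ± 0.10 (Ddb2).

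**Figure D3:**
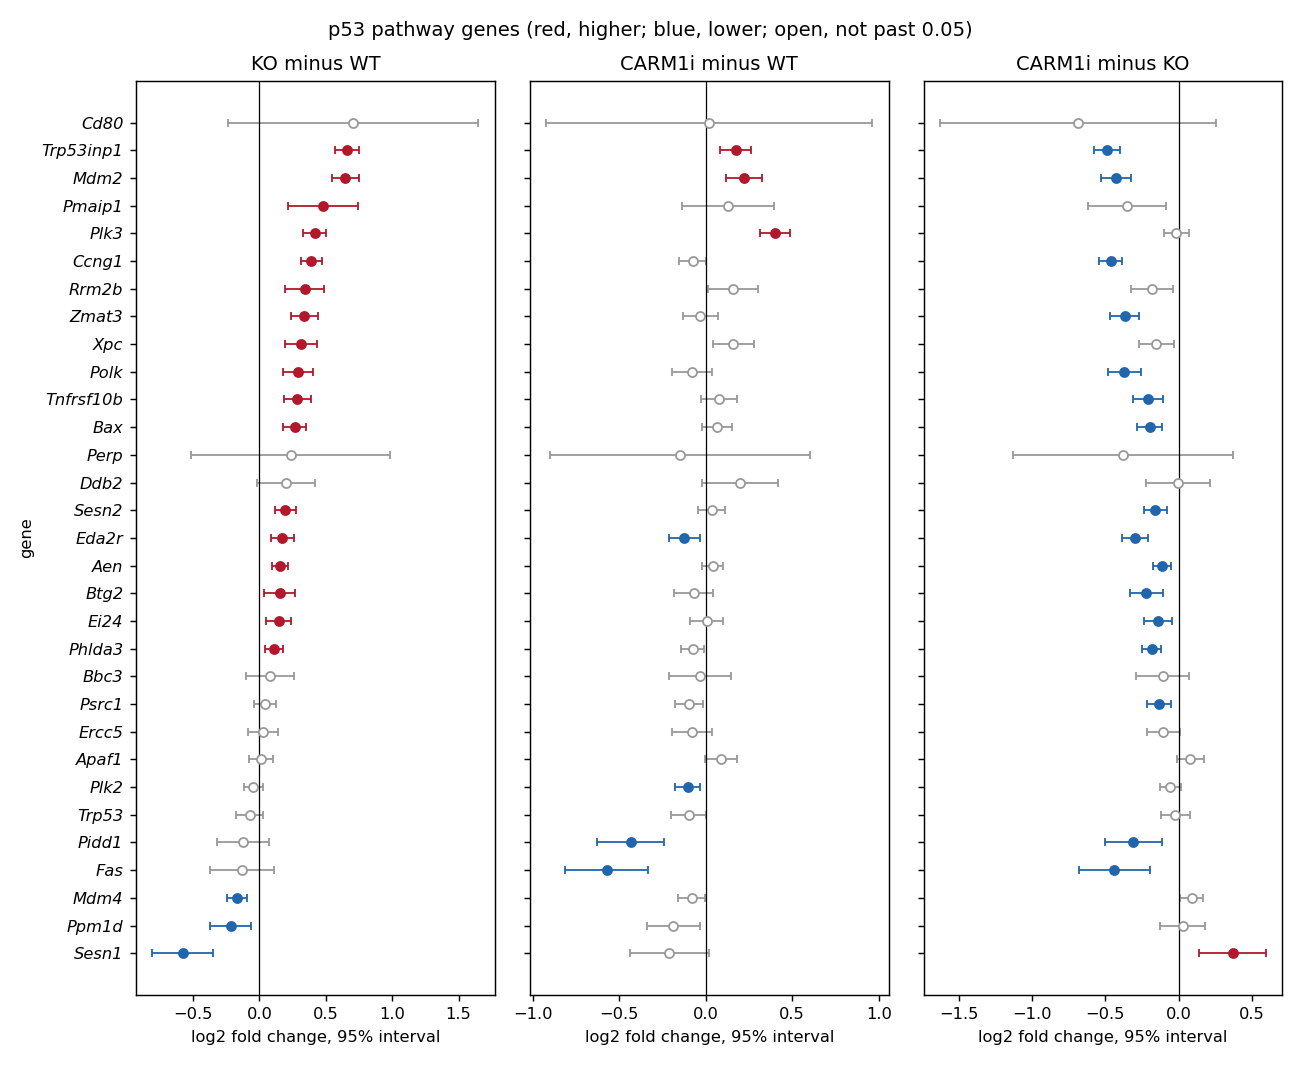
Log2 fold change with its 95% interval for each of the 31 members in KO minus WT, CARM1i minus WT and CARM1i minus KO, with genes in the order of the KO minus WT estimate. Of the members, 17 are higher and 3 lower in the first panel, 3 higher and 4 lower in the second, and 1 higher and 16 lower in the third; open points did not pass 0.05.

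The KO and CARM1i contrasts share the WT libraries, so the difference between the treatments was taken from the direct test of CARM1i against KO. Of 31 members, 16 (51.6%) were lower in CARM1i than in KO and 1 (3.23%) was higher, beside 11.5% lower, 12.1% higher and 23.6% in either direction among all genes tested. The median was -0.18, against -0.0021 for all genes. Without CARM1i replicate 3 the counts were 19 members lower and 1 higher, beside 1769 and 1913 of all genes. The 12 proliferation genes were all higher in CARM1i than in KO (median 0.82), as were 7 of 9 fibroblast markers (median 0.29), Nes (0.60 ± 0.08) and Tubb3 (1.13 ± 0.19). Krt18 (-1.49 ± 0.25) and Acta1 (-0.92 ± 0.17) were lower. The part of any of these in this difference was not tested.

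The largest differences that passed were those of Trp53inp1 (-0.49 ± 0.04, adjusted p = 1.35e-07), Ccng1 (-0.46 ± 0.04, 5.18e-08), Fas (-0.44 ± 0.11, 0.00885), Mdm2 (-0.43 ± 0.05, 4.15e-06), Polk (-0.37 ± 0.05, 5.52e-05) and Zmat3 (-0.37 ± 0.05, 1.48e-05). Trp53inp1 averaged 5242 ± 253 normalized reads in CARM1i and 7346 ± 341 in KO (SD, n = 3 each, here and in the next sentences). Ccng1 averaged 15915 ± 811 in CARM1i and 21949 ± 682 in KO, and Mdm2 12617 ± 1155 in CARM1i and 16928 ± 794 in KO. Polk averaged 1339 ± 50.9 in CARM1i and 1735 ± 129 in KO, and Zmat3 1167 ± 23.7 in CARM1i and 1507 ± 25.8 in KO. In none of the 5 did a CARM1i library reach the lowest KO library. Pidd1 (-0.31 ± 0.09, adjusted p = 0.0204), Eda2r (-0.30 ± 0.04, 4.79e-05), Btg2 (-0.22 ± 0.05, 0.00591), Tnfrsf10b (-0.21 ± 0.05, 0.00451) and Bax (-0.20 ± 0.04, 0.00183) were also lower. So were Phlda3 (-0.18 ± 0.03, adjusted p = 0.00027), Sesn2 (-0.16 ± 0.04, 0.00376), Ei24 (-0.14 ± 0.05, 0.0322), Psrc1 (-0.14 ± 0.04, 0.0147) and Aen (-0.12 ± 0.03, 0.00705). Among the 16, the libraries of CARM1i and KO overlapped for Ei24 alone. Sesn1 was higher in CARM1i than in KO, with 243 ± 29.8 normalized reads in CARM1i against 187 ± 14.6 in KO (0.37 ± 0.11, adjusted p = 0.0191). Its adjusted p ran from 0.00257 to 0.0914 over the alternatives and missed 0.05 without CARM1i replicate 1 or 2 or KO replicate 3.

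Several calls were lost when 1 library was left out. Ei24 (0.00151 to 0.147 over the alternatives) missed 0.05 without CARM1i replicate 1 or 2 or KO replicate 2 or 3, and Pidd1 (0.00634 to 0.105) without CARM1i replicate 1 or 2 or KO replicate 1. Psrc1 (0.00616 to 0.082) missed it without CARM1i replicate 1 or KO replicate 2, and Fas (0.00399 to 0.0592) without KO replicate 2. In limma without the mean-variance trend Ei24, Pidd1, Psrc1, Fas and Btg2 missed it too. Ei24 also missed it with quantile normalization and with only the compared groups. Pmaip1 (-0.35 ± 0.13, adjusted p = 0.0509) lay at the threshold and passed in 7 of 20 alternatives (0.0228 to 0.192). It passed without CARM1i replicate 3 or WT replicate 3, with edgeR, with quantile normalization and in limma without the trend. A mean of at least 50 and a pseudocount of 10 also let it pass. Plk3 did not differ beyond its error between the treatments, with 2332 ± 52.1 in CARM1i and 2358 ± 100.1 in KO and an interval of -0.10 to 0.07 on the log2 scale. For Trp53 the interval was -0.12 to 0.08, for Ppm1d -0.13 to 0.18 and for Ddb2 -0.22 to 0.22. Xpc (-0.15 ± 0.06, adjusted p = 0.0588) and Rrm2b (-0.18 ± 0.07, 0.068) did not pass in this direct test. Both passed with quantile normalization and without CARM1i replicate 3 (0.00412 and 0.0471 without it), and Rrm2b also without KO replicate 3.

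Levels could be set against each other only per length. Per kilobase of annotated exon, WT means ran from 3.69 normalized reads (Cd80) and 9.20 (Perp) to 3534 (Phlda3), 4772 (Ccng1) and 5059 (Plk2), with Mdm2 at 2125, Trp53 at 447 and Mdm4 at 227. Of the 3 most abundant members per kilobase, only Ccng1 and Phlda3 passed in KO. The spread between libraries of a group was small for most members, with a median coefficient of variation of 4.83% in CARM1i, 4.25% in KO and 3.69% in WT, and 49.8%, 42.6% and 45.1% at the highest.

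A second list, also chosen with earlier results of these data known, held 28 other p53 targets, of which 25 reached the minimum mean. In KO, 11 of the 25 (44.0%) rose and 1 (4.0%) fell, beside 21.4% higher and 20.5% lower among all genes tested (median 0.04). Steap3, a ferrireductase, had 4419, 4761 and 4785 normalized reads in KO, against 2169, 2136 and 2451 in WT, a 2.07-fold rise (1.05 ± 0.05, adjusted p = 1.64e-11). Dcxr, a carbonyl reductase (0.57 ± 0.06), Abhd4, a lipase (0.46 ± 0.05), Gadd45a, a growth arrest and repair protein (0.62 ± 0.07), and Cdkn1a, the cyclin-dependent kinase inhibitor p21 (0.35 ± 0.05), rose too. Ckap2, a spindle protein, fell (-0.72 ± 0.05). In CARM1i, 4 (16%) rose and 4 (16%) fell, beside 10.5% and 8.59% (median -0.06). Among them, Steap3 (0.52 ± 0.05) and Gadd45a (0.33 ± 0.07) rose, while Ckap2 (-0.56 ± 0.05) and Gtse1, a G2 and S phase protein that restrains p53 (-0.24 ± 0.04), fell. Cdkn1a had 3108, 2983 and 3428 in CARM1i, 4156, 4165 and 4108 in KO and 3394, 3124 and 3258 in WT. Its KO libraries stood above all others, and it did not pass in CARM1i against WT (-0.04 ± 0.05, interval -0.14 to 0.06).

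Set directly against KO, 15 of these 25 targets (60.0%) were lower in CARM1i and 1 (4.0%) was higher, beside 11.5% lower and 12.1% higher among all genes tested (median -0.24). Steap3 (-0.53 ± 0.05, adjusted p = 4.99e-07), Cdkn1a (-0.39 ± 0.05, 5.78e-06), Dcxr (-0.40 ± 0.06, 4.05e-05) and Sulf2, an extracellular sulfatase (-0.53 ± 0.07, 4.73e-05), had the smallest adjusted p. Ckap2 was the gene that was higher (0.16 ± 0.05).

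**Figure D4:**
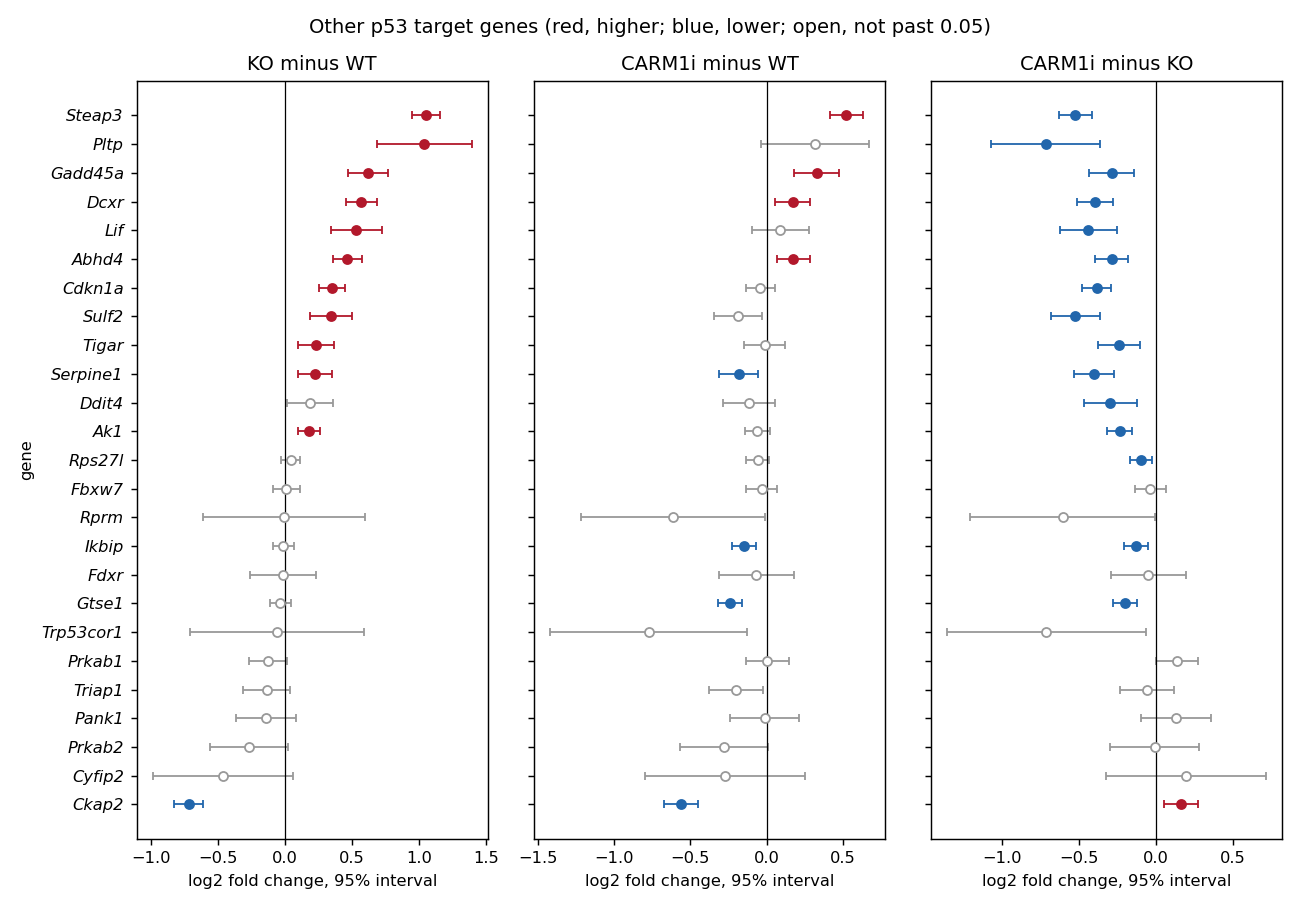
Log2 fold change with its 95% interval for the 25 tested genes of the list of other p53 targets in KO minus WT, CARM1i minus WT and CARM1i minus KO. Filled points passed 0.05, with 11 higher and 1 lower in KO, 4 and 4 in CARM1i, and 1 higher and 15 lower in CARM1i against KO.

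Genes that act upstream of p53 or with it formed another list. Of 20 tested in a list of 22 kinases, ubiquitin regulators and cofactors, 2 (10.0%) rose and 3 (15.0%) fell in KO, with a median of 0.03. Both shares were below those of all genes tested, 21.4% and 20.5%. Chek1, the checkpoint kinase of stalled replication forks, had 213, 223 and 217 normalized reads in KO, against 484, 496 and 500.4 in WT (-1.18 ± 0.08, adjusted p = 1.55e-09). Atr, the kinase that activates it, fell less (-0.26 ± 0.04), as did Usp7, a deubiquitinase of Mdm2 and p53 (-0.13 ± 0.03), while Rchy1, a ubiquitin ligase of p53 (0.14 ± 0.04), and Atm, the kinase of double-strand breaks (0.16 ± 0.06), rose. In CARM1i, 2 (10.0%) rose and 1 (5.0%) fell, beside 10.5% and 8.59% of all genes. Chek1 fell (-0.31 ± 0.08) and the cofactor genes Brd7 (0.15 ± 0.04) and Trp53bp2 (0.14 ± 0.05) rose. Chek1 (0.87 ± 0.08) and Atr (0.26 ± 0.04) were the 2 of 20 (10.0%) higher in CARM1i than in KO, beside 12.1% of all genes. Ep300 and Crebbp, which encode p300 and CBP, did not pass in any of the 3 comparisons, with estimates of 0.09 ± 0.06 and 0.08 ± 0.05 in KO and -0.05 ± 0.06 and 0.03 ± 0.05 in CARM1i.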

How the data were processed

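RNA was measured in 9 libraries, 3 in each of the CARM1i, KO and WT groups, prepared with a strand-specific kit for mRNA, per the labels' protocols. Tools listed in the submitters' processing notes are DESeq 1.18.0, HTSeq 0.6.0 and TopHat2 2.0.10, with the mm10 build. The authors deposited a normalized signal for each gene and library, and dividing each library's values by its smallest step gave whole reads for 100% of them (tolerance 1e-06 reads), so they are read counts over a size factor. Neither the strand setting nor the annotation release is given in the sources used here. Depth was 28657018 to 35842771 recovered reads per library, and means of 3 libraries limit the precision to the SEs given. IDs were matched to GENCODE M21 (16413 of 16428 without their version).

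The test was limma 3.58.1 (R 4.3.3), run on log2(value + 1) with a mean-variance trend; the pseudocount of 1 understates the fold changes of low genes. A single fit held all 9 libraries and 3 groups, for genes with a mean of at least 10, with Benjamini-Hochberg adjustment over 14560 genes and a threshold of 0.05. Estimates are ± SE. The members and lists were chosen with earlier results of these data known. All members are named, and from other lists up to 4 genes per comparison by smallest adjusted p, besides genes named for their role (Rrm1, Rrm2, Atm, Ep300, Crebbp), chosen after their values were seen. Some genes chosen in 1 comparison, such as Cdkn1a in CARM1i against KO, are also given in the others. Alternatives were edgeR 4.0.16 on recovered reads (3119 genes higher and 3031 lower in KO, 1550 and 1271 in CARM1i, each against WT, 1808 and 1663 in CARM1i against KO), DESeq2 1.42.0, filters, scalings, pseudocounts, subsets of groups, the replicate number as a block and leaving out each library. The fit was tested on simulated counts. Within a group, no library was a copy of another (chi-square of 2.47 to 8.47 per gene), and pairs across groups were not compared in this way.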

Additional observations from a re-analysis of the deposited data

How the results depend on the processing

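Of 44 member calls over the 3 comparisons, 30 kept their direction and stayed past 0.05 in all alternatives run, 14 missed 0.05 in at least 1, and none changed sign. A further 10 member results not called were called in at least 1 alternative. Counts in KO against WT were 17 higher and 3 lower with edgeR, DESeq2 and the replicate block, with 16 to 17 higher and 2 to 3 lower when a library was left out. They were 15 and 2 without the mean-variance trend, 16 and 2 with quantile normalization, and 16 and 3 rescaled to a common total. Over all genes tested the main fit gave 3114 higher and 2986 lower. Those settings gave, in the same order, 2818 and 2675, 3272 and 3000, and 2837 and 3285. With a library left out, all genes gave 2663 to 3281 higher and 2580 to 3183 lower. In CARM1i against WT, 3 members were higher and 4 lower, beside 1533 and 1251 of all genes. Without the mean-variance trend 1 member was higher and 2 lower, beside 1018 and 779 of all genes. With only the compared groups 2 members were lower, beside 1088 of all genes. The replicate block also gave 2 lower, beside 1123. The cause of these drops was not tested. With quantile normalization 4 members were higher and 6 lower, beside 1503 and 1401 of all genes. Rescaled to a common total, 3 members were higher and 5 lower, beside 1346 and 1510. Leaving out a library gave 3 to 4 members higher and 2 to 5 lower (2 without CARM1i replicate 2, KO replicate 3 or WT replicate 1 or 2). Of all genes, 1131 to 1495 were then higher and 805 to 1208 lower. In CARM1i against KO, 16 members were lower (12 without the mean-variance trend and 18 with quantile normalization). Of all genes, 1675 were lower (1199 and 1767 in those settings). With a library left out, 13 to 19 members were lower, beside 1236 to 1769 of all genes. In the main fit 1 member was higher. That gene, Sesn1, was not called by limma without CARM1i replicate 1 or 2 or KO replicate 3, which left a count of 0, with 1 to 2 members higher at an unadjusted p under 0.05, and without KO replicate 2 the count was 2 (edgeR and DESeq2 gave 1 on all libraries). With the replicate block, CARM1i against WT had 3 members higher and 2 lower and CARM1i against KO 1 and 16. Over all genes the block gave 1430 and 1123 in the former and 1619 and 1537 in the latter. Same-numbered libraries of different groups did not deviate together (correlations of -0.087 to 0.0268 over 9 pairs, and 0 of 9 libraries correlated best with its own number in both other groups). The labels do not say whether the numbers mark a batch. A mean of at least 50 dropped Perp and Cd80, whose low counts limit any statement on them.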
